A study of Mus musculus with 10 samples.

Results

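The 7 genes *Hcn2*, *Hcn3*, *Hcn4*, *Kcna1*, *Kcna2*, *Kcnd2* and *Kcnq3*, which encode pore subunits of HCN and voltage-gated potassium channels, were taken by their symbols from a hippocampal expression table of 15900 genes. All 7 were present, and all were among the 15851 genes tested, which reached 0.1 CPM in 2 or more libraries. Expression was measured by cap analysis of gene expression (CAGE), which sequences the capped 5′ ends of transcripts. Each CAGE tag marks a start of transcription, and levels are in tags scaled to a fixed library total (CPM), which need no division by transcript length when genes are compared. The hippocampi came from 10 ICR mice, an outbred stock, aged 9 to 10 weeks per the study's methods, and fall into 5 groups of 2. Pre-SE mice are labelled as untreated, and in the methods the controls received saline in place of pilocarpine (PILO). The mice of the other 4 groups received methyl scopolamine and then PILO, a muscarinic agonist that induces status epilepticus (SE), which was defined by 5 generalized convulsive seizures and ended with diazepam in all mice. Hippocampi were taken 6 h or 2 days after SE, without (SE 6 h, SE 2 days) or with levetiracetam (LEV), an anti-epileptic drug that was given by mouth, 1 time before sampling in SE + LEV 6 h mice and 5 times in SE + LEV 2 days mice. Whole tissue was used, so that fewer cells of a type and less RNA per cell cannot be told apart.

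HCN channels open when the membrane hyperpolarizes, pass a depolarizing cation current and are modulated by cyclic nucleotides. In hippocampal neurons this current sets the resting potential and limits dendritic summation. The Kv1 subunits encoded by *Kcna1* and *Kcna2* form low-threshold axonal potassium channels that limit repetitive firing. The Kv4 subunit encoded by *Kcnd2* carries the dendritic A-type current. *Kcnq3* encodes a Kv7 subunit that, with other Kv7 subunits, forms the M-type channels that restrain bursts and that muscarinic receptors close. Mutations in *KCNA1*, *KCNA2* and *KCNQ3* are known causes of human epilepsies or related excitability disorders.

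Since CAGE reads the start of the transcript, the sequences around the annotated starts are shown for *Hcn2*, *Hcn4*, *Kcna2* and *Kcnd2*, the 4 of the 7 genes matched in the RefSeq promoter table for GRCm38.p6, a later build than the mm9 used for the CAGE tags. Each sequence runs on the + strand from 100 bases before the start to 20 bases from the start on, with the last base before the start and the first base of the transcript in capitals. In *Hcn2*, capitals also mark a match to GCGNGGGCG, the Egr motif, on the reverse strand. They lie on chromosome 10 from 79716534 to 79716653 (*Hcn2*), chromosome 9 from 58822849 to 58822968 (*Hcn4*), chromosome 3 from 107101467 to 107101586 (*Kcna2*) and chromosome 6 from 21215246 to 21215365 (*Kcnd2*).
Hcn2: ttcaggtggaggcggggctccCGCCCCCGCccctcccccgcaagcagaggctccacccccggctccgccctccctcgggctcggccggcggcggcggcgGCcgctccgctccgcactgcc
Hcn4: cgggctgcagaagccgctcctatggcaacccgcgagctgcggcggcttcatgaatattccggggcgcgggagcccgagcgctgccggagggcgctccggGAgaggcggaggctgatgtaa
Kcna2: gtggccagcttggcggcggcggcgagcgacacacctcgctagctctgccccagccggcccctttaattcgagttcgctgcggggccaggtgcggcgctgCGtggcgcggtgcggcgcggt
Kcnd2: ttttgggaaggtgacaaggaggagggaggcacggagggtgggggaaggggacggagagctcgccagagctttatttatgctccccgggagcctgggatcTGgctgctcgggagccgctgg

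All 4 promoters were rich in G and C. Over the 300 bases of each table entry the GC content was 72.3% in *Hcn2*, 71.7% in *Hcn4*, 66.7% in *Kcna2* and 68.7% in *Kcnd2*, beside a median of 52.7% over 32851 promoters. Each held 26 to 31 CpG dinucleotides, beside a median of 7. Both strands of the 300 bases were searched for the letters of 5 motifs. GCGNGGGCG was present in 1 of the 4, *Hcn2*, with its first base at −79 from the start, and in 5.55% of all promoters. TATAAA (13.6% of all promoters), the cyclic AMP response element TGACGTCA (1.79%), the AP-1 motif TGANTCA (7.81%) and TTCAGCACC, the core of the REST motif (0.371%), were in 0 of the 4. A match is a description of the letters in this window only.

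The recovered tag totals of the 10 libraries ran from 10540698 to 51710968, with a median of 26671413, so that the limit of detection, set at 3 tags, was between 0.058 and 0.285 CPM. The differences between groups (logFC) were estimated on the log2(CPM + 0.1) scale, which understates changes of low genes, with limma over all 15851 genes and Benjamini-Hochberg adjustment, and a gene was called where its adjusted p did not exceed 0.05. With 2 mice against 2, an exact permutation test cannot give a two-sided p below 0.333, so calls rest on the spread that the fit shares across genes and groups. The pre-SE mice are the reference at both times, and each SE group is the reference for its SE + LEV group, so these comparisons share mice. Choroid plexus markers, from tissue that borders the hippocampus, summed to 8.66 to 4010 CPM and differed widely between mice of the same group. Their part in the results was not tested.

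None of the 7 genes was called in any of the 9 comparisons (0 of 7 by limma each time). The share of all genes called was 2.96% in SE 6 h against pre-SE, 5.66% in SE 2 days against pre-SE and 4.25% in SE 2 days against SE 6 h. It was 0.0126% in SE + LEV 6 h against SE 6 h and 0.0% in SE + LEV 2 days against SE 2 days. At an unadjusted p under 0.05, 1 of the 7 was lower in SE 6 h against pre-SE (*Kcna2*, where 17.7% of all genes passed in either direction) and 2 were lower in SE 2 days against pre-SE (*Kcnq3* and *Kcnd2*, where 19.8% passed). At the same level, 2 were lower in SE 2 days against SE 6 h (*Kcnq3* and *Kcna1*, where 20.1% passed). With LEV against SE alone, 0 of 7 passed at 6 h (4.58% of all genes) and 0 of 7 at 2 days (2.7%). Each of these counts was within 1 gene of 7 times the share of all genes in either direction. The members that passed were all lower, however. In the lower direction alone, 8.51% of all genes passed in SE 6 h against pre-SE. That share was 7.29% in SE 2 days against pre-SE and 7.29% in SE 2 days against SE 6 h.

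Levels spanned more than 2 orders of magnitude. *Kcna1* was the highest of the 7, with a median of 111 CPM over the 10 mice, followed by *Kcnd2* (64.6 CPM), *Kcna2* (49.3 CPM), *Kcnq3* (39.4 CPM), *Hcn2* (36.7 CPM), *Hcn3* (8.68 CPM) and *Hcn4* (0.67 CPM). Neighbours in this order from *Kcna1* to *Hcn2* overlapped in their ranges over the mice, whereas *Hcn3* lay below *Hcn2*, and *Hcn4* below *Hcn3*, in all mice.

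**Figure D1:**
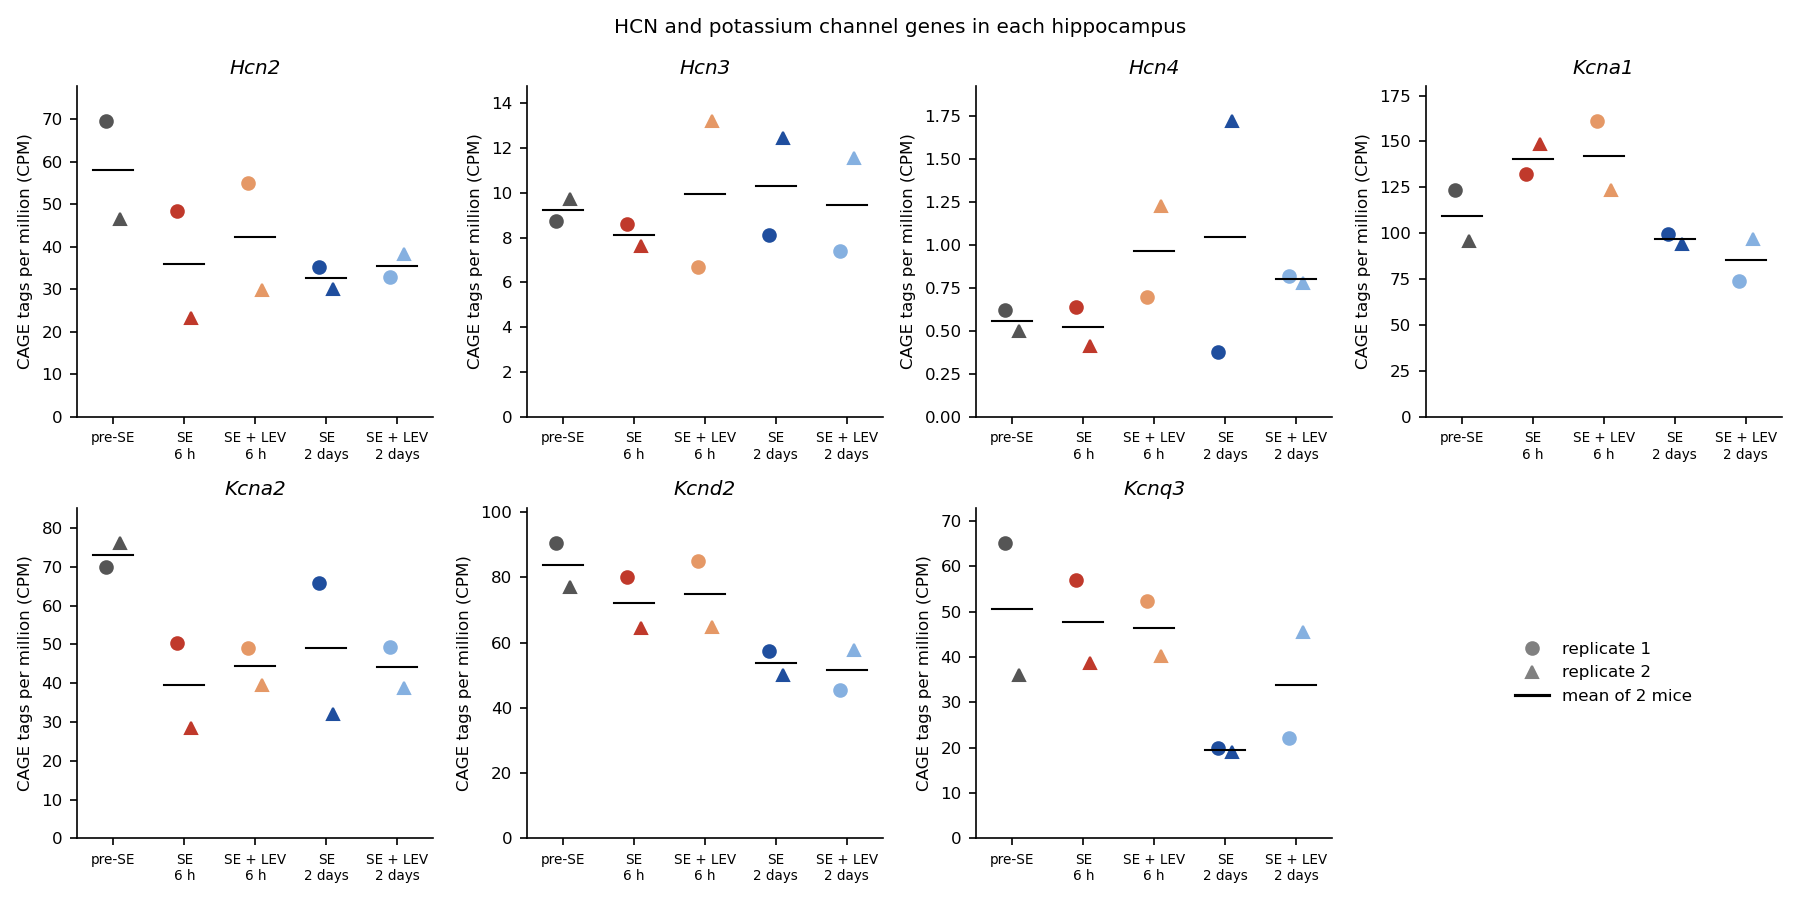
CPM (y axis, from 0) of the 7 genes in each hippocampus by group (x axis), with circles for replicate 1, triangles for replicate 2 and a line for the mean of the 2 mice. All 8 mice given PILO lie below both pre-SE mice for *Kcna2*, and both SE 2 days mice lie at 18.96 and 19.84 CPM for *Kcnq3*, below all other mice.

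Among the HCN genes, *Hcn2* had the clearest difference between pre-SE and PILO mice, with means of 58.0 CPM before and 32.6 CPM at 2 days after SE, and *Hcn3* and *Hcn4* had small or poorly measured ones. *Hcn2* (ENSMUSG00000020331, mm9 chromosome 10 from 79179379 to 79198853, + strand), which encodes one of the main HCN subunits of the brain, was at 69.49 and 46.59 CPM in pre-SE mice. It was at 48.37 and 23.3 CPM in SE 6 h mice, 54.96 and 29.88 CPM in SE + LEV 6 h mice, 35.15 and 29.99 CPM in SE 2 days mice and 32.83 and 38.2 CPM in SE + LEV 2 days mice. Of the 8 PILO mice, 6 were below both pre-SE mice, and the other two, replicates 1 of the 6 h groups, lay within the pre-SE range. The logFC was −0.76 at 6 h (95% interval −1.63 to 0.11, limma adjusted p = 0.34) and −0.81 at 2 days (−1.68 to 0.06, adjusted p = 0.29). At 6 h it was −0.23 without SE 6 h replicate 2 and −1.28 without SE 6 h replicate 1. Without pre-SE replicate 1 it was −0.47 at 6 h and −0.52 at 2 days. Without pre-SE replicate 2 it was −1.05 and −1.1. Counting error was smaller than the gap between mice: the exact Poisson 95% interval of pre-SE replicate 1 was 66.5 to 72.6 CPM.

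*Hcn3* (ENSMUSG00000028051, chromosome 3 from 88949996 to 88964118, − strand) encodes a less studied HCN subunit. It overlaps *Pklr* on the other strand, and the sources used here do not state whether strand was used when tags were summed to genes. It was at 8.76 and 9.71 CPM in pre-SE mice, 8.6 and 7.61 CPM in SE 6 h mice, 6.68 and 13.19 CPM in SE + LEV 6 h mice, 8.14 and 12.47 CPM in SE 2 days mice and 7.41 and 11.54 CPM in SE + LEV 2 days mice. Both SE 6 h mice were just below both pre-SE mice, whereas the PILO mice of the other 3 groups lay on both sides of them. The logFC was −0.19 at 6 h (−1.06 to 0.69, limma adjusted p = 0.84) and 0.13 at 2 days (−0.75 to 1.0, adjusted p = 0.9), with no difference beyond the spread between mice.

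*Hcn4* (ENSMUSG00000032338, chromosome 9 from 58671319 to 58708762, + strand), the main pacemaker channel subunit of the heart, was low, with 6 to 36 tags in a library. It was at 0.62 and 0.5 CPM in pre-SE mice, 0.64 and 0.41 CPM in SE 6 h mice, 0.7 and 1.23 CPM in SE + LEV 6 h mice, 0.38 and 1.72 CPM in SE 2 days mice and 0.82 and 0.78 CPM in SE + LEV 2 days mice. The lowest and the highest value of all 10 were the 2 SE 2 days mice, with Poisson 95% intervals of 0.174 to 0.724 and 1.2 to 2.38 CPM. Its logFC was −0.1 at 6 h (−1.44 to 1.24, limma adjusted p = 0.95) and 0.51 at 2 days (−0.83 to 1.85, adjusted p = 0.71), and the latter was −0.45 without SE 2 days replicate 2.

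The ratios of *Hcn3* and *Hcn4* to *Hcn2* within a library, which do not depend on the scaling between libraries, varied between mice of a group. The log2 ratio of *Hcn3* to *Hcn2* was −2.63 ± 0.51 (SD, n = 2) before SE, −2.05 ± 0.62 at 6 h and −1.69 ± 0.6 at 2 days after SE. The values before SE, −2.99 and −2.26, did not overlap with those at 2 days, −2.11 and −1.27, whereas those at 6 h, −2.49 and −1.61, did. With LEV the values were −3.04 and −1.18 at 6 h, on both sides of the pre-SE mice, and −2.15 and −1.73 at 2 days. The log2 ratio of *Hcn4* to *Hcn2* was −6.68 ± 0.19 before SE, −6.03 ± 0.29 at 6 h and −5.33 ± 1.7 at 2 days after SE, where 1 mouse was at −6.53 and the other at −4.12. With LEV this ratio was −6.29 and −4.6 at 6 h and −5.32 and −5.61 at 2 days. No test was made of these ratios.

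The 2 Kv1 genes differed in direction at 6 h. *Kcna2* was at 73.0 CPM before and 39.4 CPM at 6 h after SE, and *Kcna1* was at a higher level at 6 h than before SE, without either gene being called. *Kcna1* (ENSMUSG00000047976, chromosome 6 from 126586481 to 126595819, − strand), whose loss causes seizures in mice, was at 123.5 and 95.8 CPM in pre-SE mice, 132.18 and 148.69 CPM in the SE 6 h group and 160.88 and 123.71 CPM in SE + LEV 6 h mice. It was at 99.34 and 94.14 CPM in SE 2 days mice and 73.98 and 97.01 CPM in SE + LEV 2 days mice. All 4 mice sampled at 6 h were above both pre-SE mice and all 4 sampled at 2 days were below the 6 h mice. The lowest 6 h mouse, SE + LEV 6 h replicate 2 at 123.71 CPM, lay next to pre-SE replicate 1 at 123.5 CPM. The Poisson 95% intervals of these mice overlapped, so this gap was within counting error. For this arrangement, no share of all genes was counted. The logFC of *Kcna1* was 0.37 at 6 h (−0.16 to 0.89, limma adjusted p = 0.45) and −0.17 at 2 days (−0.7 to 0.36, adjusted p = 0.76) against pre-SE mice. Between the times it was −0.54 in SE mice (−1.06 to −0.01, adjusted p = 0.24) and −0.74 in SE + LEV mice (−1.26 to −0.21, adjusted p = 0.21).

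*Kcna2* (ENSMUSG00000040724, chromosome 3 from 106904485 to 106909797, + strand) encodes the partner of *Kcna1* in axonal Kv1 channels. It was at 69.84 and 76.17 CPM in pre-SE mice, 50.39 and 28.5 CPM in the SE 6 h group and 49.14 and 39.56 CPM in SE + LEV 6 h mice. It was at 65.89 and 32.05 CPM in SE 2 days mice and 49.42 and 38.86 CPM in SE + LEV 2 days mice. All 8 PILO mice were below both pre-SE mice, an arrangement found in 6.49% of all genes, and SE 2 days replicate 1 was the closest to the lower pre-SE mouse. The logFC was −0.94 at 6 h (−1.76 to −0.13, limma adjusted p = 0.22) and −0.67 at 2 days (−1.48 to 0.15, adjusted p = 0.36). With LEV, it was −0.72 at 6 h (−1.54 to 0.09, adjusted p = 0.56) and −0.73 at 2 days (−1.55 to 0.08, adjusted p = 0.55) against pre-SE mice. Leaving out SE 6 h replicate 2 brought the 6 h value to −0.53, and leaving out replicate 1 to −1.35. The 2-day value in SE mice was −0.15 without SE 2 days replicate 2 and −1.18 without replicate 1.

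Within each library *Kcna1* exceeded *Kcna2*, and the group means of their ratio were highest at 6 h. The log2 ratio of the pair was 0.82 and 0.33 before SE, 1.39 and 2.38 at 6 h after SE, 1.71 and 1.64 at 6 h with LEV, 0.59 and 1.55 at 2 days after SE, and 0.58 and 1.32 at 2 days with LEV. The 4 mice sampled at 6 h were above both pre-SE mice, and the mice sampled at 2 days spread over both ranges. No test was made of the ratio.

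*Kcnd2*, the Kv4 gene, was lower in every mouse sampled at 2 days, with or without LEV, than in both pre-SE mice. *Kcnd2* (ENSMUSG00000060882, chromosome 6 from 21165503 to 21679805, + strand) was at 90.56 and 77.04 CPM in pre-SE mice, 80.02 and 64.54 CPM in the SE 6 h group and 84.93 and 64.7 CPM in SE + LEV 6 h mice. It was at 57.37 and 50.1 CPM in SE 2 days mice and 45.56 and 57.67 CPM in SE + LEV 2 days mice. The 4 mice sampled at 2 days were below all 6 other mice, whereas the 6 h groups overlapped with pre-SE mice. The share of all genes with this arrangement was not counted. In SE 2 days against pre-SE alone, 25.6% of all genes were lower without overlap. The logFC was −0.22 at 6 h (−0.75 to 0.32, limma adjusted p = 0.68), −0.64 in SE 2 days mice (−1.17 to −0.1, adjusted p = 0.17) and −0.7 in SE + LEV 2 days mice (−1.24 to −0.17, adjusted p = 0.24). The 2-day estimate in SE mice stayed between −0.76 and −0.52 when any 1 mouse was left out.

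*Kcnq3*, the Kv7 gene, had the largest estimate of the 7 genes in SE 2 days mice, 19.4 ± 0.622 CPM (SD, n = 2) against 50.6 ± 20.6 CPM in pre-SE mice. *Kcnq3* (ENSMUSG00000056258, chromosome 15 from 65826733 to 66117786, − strand) was at 65.18 and 36.07 CPM in pre-SE mice, 56.96 and 38.64 CPM in the SE 6 h group and 52.43 and 40.23 CPM in SE + LEV 6 h mice. It was at 19.84 and 18.96 CPM in SE 2 days mice and 22.13 and 45.51 CPM in SE + LEV 2 days mice. Both SE 2 days mice were below all other 8 mice, and the SE 6 h and pre-SE mice overlapped. How many of all genes had this arrangement was not counted. The Poisson 95% intervals of SE 2 days replicate 1 (18.1 to 21.7 CPM) and SE + LEV 2 days replicate 1 (20.8 to 23.6 CPM) overlapped. The logFC was −0.05 at 6 h (−0.91 to 0.82, limma adjusted p = 0.96) and −1.32 at 2 days (−2.18 to −0.45, adjusted p = 0.084). Between SE 2 days and SE 6 h mice it was −1.27 (−2.14 to −0.4, adjusted p = 0.11), and in a fit of these 2 groups alone its adjusted p was 0.045, the only setting in which 1 of the 7 genes was called. The 2 pre-SE mice differed 1.81-fold, and the 2-day logFC was −0.89 without pre-SE replicate 1 (adjusted p = 0.49) and −1.74 without replicate 2 (adjusted p = 0.073).

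*Kcnd2* relative to *Kcnd3*, another Kv4 gene, separated the pre-SE from the PILO mice, with log2 ratios of 0.57 and 0.93 in pre-SE mice and of −0.25 to 0.19 in the 8 PILO mice. This pair was chosen after its values were seen, and no test was made.

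**Figure D2:**
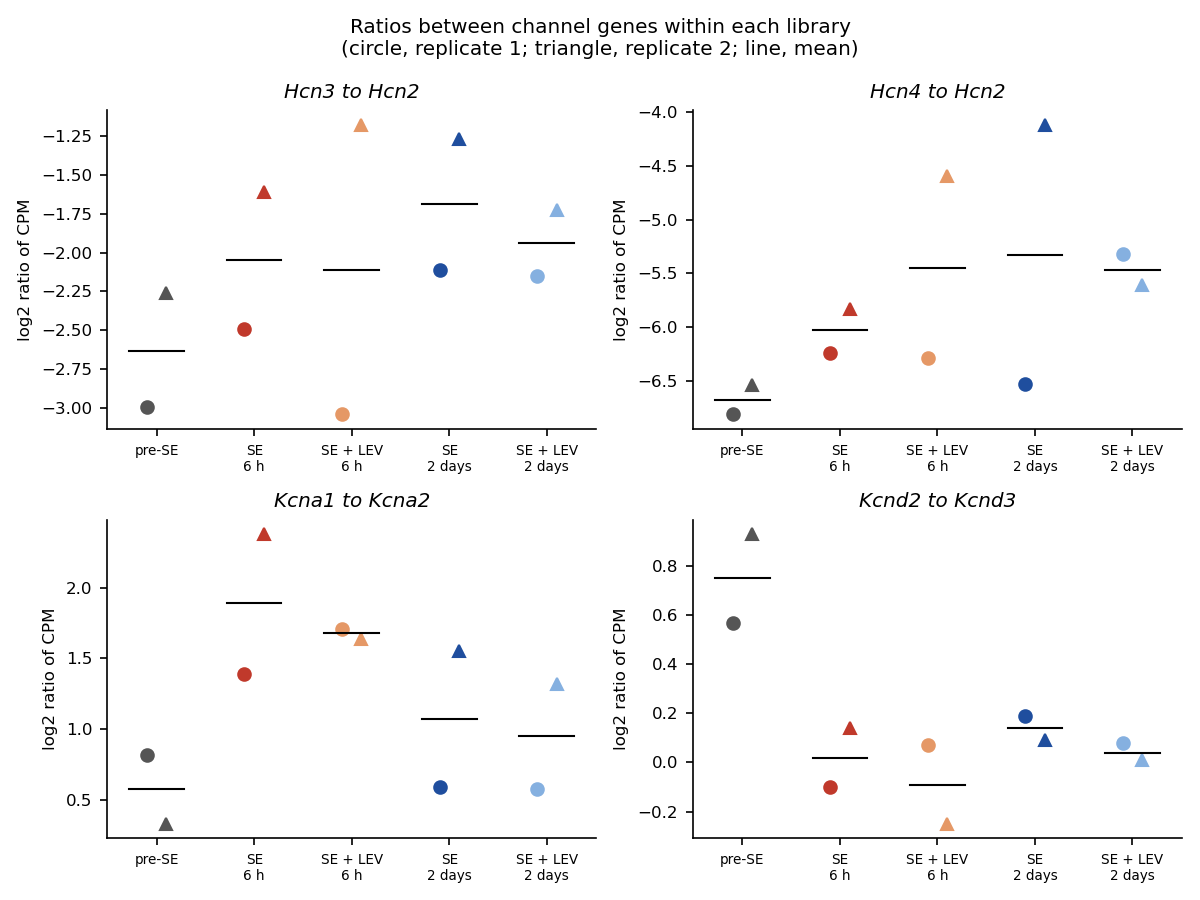
Log2 ratio of the CPM of 2 channel genes in the same library (y axis, not starting at 0) by group (x axis), with circles for replicate 1, triangles for replicate 2 and a line for the mean. *Kcnd2* to *Kcnd3* is lower in all 8 PILO mice than in both pre-SE mice, and *Kcna1* to *Kcna2* is higher in the 4 mice sampled at 6 h than in both pre-SE mice.

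The mice of the 2 groups compared did not overlap for 3 of the 7 genes in SE 6 h against pre-SE (*Kcna1* higher, *Hcn3* and *Kcna2* lower, beside 49.9% of all genes in either direction). In SE 2 days against pre-SE they did not overlap for 4 of 7 (*Hcn2*, *Kcna2*, *Kcnd2* and *Kcnq3*, all lower), beside 52.0% of all genes in either direction and 25.6% in the lower direction. The mice of SE 2 days and SE 6 h did not overlap for 3 of 7 (*Kcna1*, *Kcnd2* and *Kcnq3*, all lower, beside 51.1% in either direction). The share without overlap was near that of all genes in each comparison, and all 4 genes without overlap at 2 days lay in the lower direction. The median logFC of the 7 was −0.19 in SE 6 h against pre-SE, beside −0.13 over all genes tested, −0.64 in SE 2 days against pre-SE, beside −0.03, and −0.05 in SE 2 days against SE 6 h, beside 0.09. After rescaling by the median of gene-wise ratios, the SE 6 h against pre-SE logFC of *Hcn4* (0.01) and *Kcnq3* (0.08) was above 0, and the directions of the other 5 genes held.

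With LEV against SE alone, no gene of the 7 was called, and the intervals of the differences were wide. At 6 h the logFC was between −0.03 (*Kcnq3*, −0.9 to 0.84) and 0.75 (*Hcn4*, −0.59 to 2.09), with a median of 0.21, beside 0.04 over all genes. The mice of the 2 groups did not overlap for 1 of 7, *Hcn4*, beside 29.5% of all genes. For *Hcn4* this gap, between 0.64 and 0.7 CPM, was within counting error. The Poisson 95% intervals of these mice were 0.392 to 0.991 and 0.432 to 1.07 CPM. At 2 days the logFC of 6 genes was between −0.19 (*Kcna1*, −0.72 to 0.34) and 0.12 (*Hcn2*, −0.75 to 0.99), and the median of the 7 was −0.06, beside 0.04. *Kcnq3* was the exception with a logFC of 0.71 (−0.16 to 1.57, limma adjusted p = 1.0), and it was the 1 gene of 7 whose mice did not overlap, beside 27.4% of all genes. The closest mice, at 19.84 CPM without and 22.13 CPM with LEV, had overlapping Poisson 95% intervals (18.1 to 21.7 and 20.8 to 23.6 CPM). The *Kcnq3* estimate was 0.19 without SE + LEV 2 days replicate 2, the mouse at 45.51 CPM, and 1.23 without replicate 1, at 22.13 CPM. The difference between the LEV effects at 2 days and at 6 h was 0.74 for *Kcnq3* (−0.49 to 1.96), and it was 0.22 without SE + LEV 2 days replicate 2 and 1.26 without replicate 1. For this difference 0 of 7 genes were called (0.0% of all genes), and 0 of 7 had an unadjusted p under 0.05 (2.38% of all genes).

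**Figure D3:**
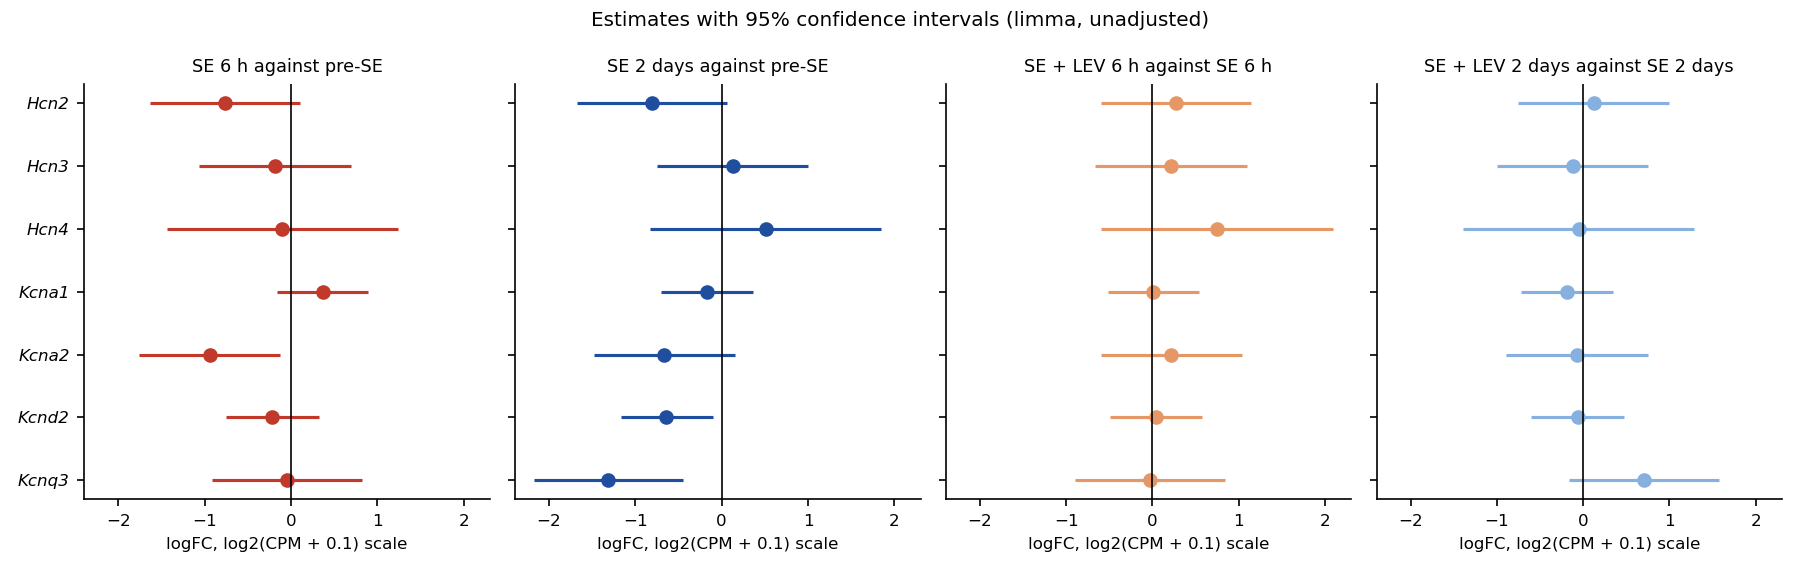
LogFC on the log2(CPM + 0.1) scale (x axis) of the 7 genes in 4 comparisons, with points for the limma estimate and bars for its unadjusted 95% interval. The intervals of *Kcna2* at 6 h and of *Kcnd2* and *Kcnq3* at 2 days after SE lie below 0, and those with LEV against SE alone all include 0.

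SE + LEV mice against pre-SE mice gave 0 of 7 genes called at 6 h (0.322% of all genes) and 0 of 7 at 2 days (2.85%). At an unadjusted p under 0.05, 0 of 7 passed at 6 h (9.38% of all genes) and 1 of 7 at 2 days (*Kcnd2*, 10.8%). The median logFC of the 7 was −0.08 at 6 h and −0.61 at 2 days, beside −0.08 and 0.02 over all genes. *Hcn2* had a logFC of −0.49 at 6 h and −0.68 at 2 days, and *Kcnq3* of −0.08 and −0.61. The last of these was −0.09 without SE + LEV 2 days replicate 1, −1.13 without replicate 2, −0.18 without pre-SE replicate 1 and −1.04 without pre-SE replicate 2. The *Hcn2* value at 6 h was −0.05 without SE + LEV 6 h replicate 2 and −0.93 without replicate 1, and that at 2 days was −0.39 without pre-SE replicate 1. Between SE + LEV 2 days and SE + LEV 6 h mice, 0 of 7 were called (2.14% of all genes), 1 of 7 had an unadjusted p under 0.05 (*Kcna1*, 11.9%), and the estimates of all 7 were below 0, from −0.74 for *Kcna1* to −0.01 for *Kcna2*.

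The remaining HCN and potassium channel genes and their partners were taken from lists by family. Of the 98 genes listed, 78 were in the table and tested. In SE 6 h against pre-SE, 1 of the 78 was called (1.28%, beside 2.96% of all genes), 51 had a logFC below 0 (41 of them below the median of all genes), and the median logFC was −0.15, beside −0.13 over all genes. In SE 2 days against pre-SE, 3 of 78 were called (3.85%, beside 5.66% of all genes), 60 had a logFC below 0 (57 below the median of all genes), and the median was −0.37, beside −0.03. At an unadjusted p under 0.05, 4 were higher and 6 lower at 6 h, where 9.21% of all genes were higher and 8.51% lower. At 2 days 4 were higher and 16 lower, where 12.5% of all genes were higher and 7.29% lower. Of the 78, 2 were called in SE 2 days against SE 6 h (2.56%, beside 4.25% of all genes), and 0 of 78 were called in any comparison that involved LEV mice. At an unadjusted p under 0.05, 2 were higher and 1 lower with LEV against SE at 6 h (1.16% and 3.42% of all genes), and 1 was higher and 0 lower at 2 days (1.31% and 1.39%). With LEV against pre-SE, 4 were higher and 3 lower at 6 h (5.53% and 3.85%), and 5 higher and 7 lower at 2 days (8.86% and 1.91%). Between the times with LEV, 5 were higher and 5 lower at 2 days (9.22% and 2.7%), and for the difference between the LEV effects 1 was higher and 0 lower (1.58% and 0.795%).

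*Kcnv1*, which encodes a silent subunit that modifies other Kv channels, fell at 6 h, from 36.73 and 36.18 CPM in pre-SE mice to 18.92 and 10.48 CPM in SE 6 h mice (limma logFC −1.37, standard error 0.29, adjusted p = 0.037). The call was lost (0 of 78 called) with rescaling by the median of gene-wise ratios, without the mean-variance trend, in a fit of the 2 groups alone, and without pre-SE replicate 1, pre-SE replicate 2 or SE 6 h replicate 2. At 2 days, *Kcnc2*, which encodes a Kv3 subunit of fast-spiking interneurons, fell from 76.08 and 83.31 CPM to 42.06 and 24.07 CPM (logFC −1.32, standard error 0.29, adjusted p = 0.025). *Kcnh7*, an ERG-type channel gene, fell from 52.94 and 57.09 CPM to 29.09 and 22.97 CPM (logFC −1.09, standard error 0.25, adjusted p = 0.033). *Kcnip3*, which encodes a calcium-binding partner of Kv4 channels that also acts as a transcriptional repressor, rose from 54.63 and 72.04 CPM to 145.64 and 191.1 CPM (logFC 1.41, standard error 0.32, adjusted p = 0.03). At 2 days 0 of 78 were called without pre-SE replicate 1, pre-SE replicate 2 or SE 2 days replicate 2. *Kcnh7* and *Kcnip3* also lost their calls without SE 2 days replicate 1, where *Kcnc2*, *Kcnip2* and *Kcnip4* were called, and without the mean-variance trend, where *Kcnc2*, *Kcnk5* and *Kcnu1* were.

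*Kcnip3* was also higher in SE 2 days than in SE 6 h mice (limma logFC 1.52, standard error 0.32, adjusted p = 0.028), as was *Kcnk6*, a two-pore channel gene, at 4.96 and 4.06 CPM against 1.38 and 0.89 CPM (logFC 1.92, standard error 0.42, adjusted p = 0.034). Without SE 6 h replicate 2 or SE 2 days replicate 2 none of the 78 was called in that comparison, without SE 6 h replicate 1 only *Kcnv1* was, and without SE 2 days replicate 1 only *Kcnip2* was. In SE + LEV 2 days mice *Kcnip3* was at 130.97 and 85.6 CPM, with a logFC of −0.66 against SE 2 days mice (adjusted p = 1.0).

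**Figure D4:**
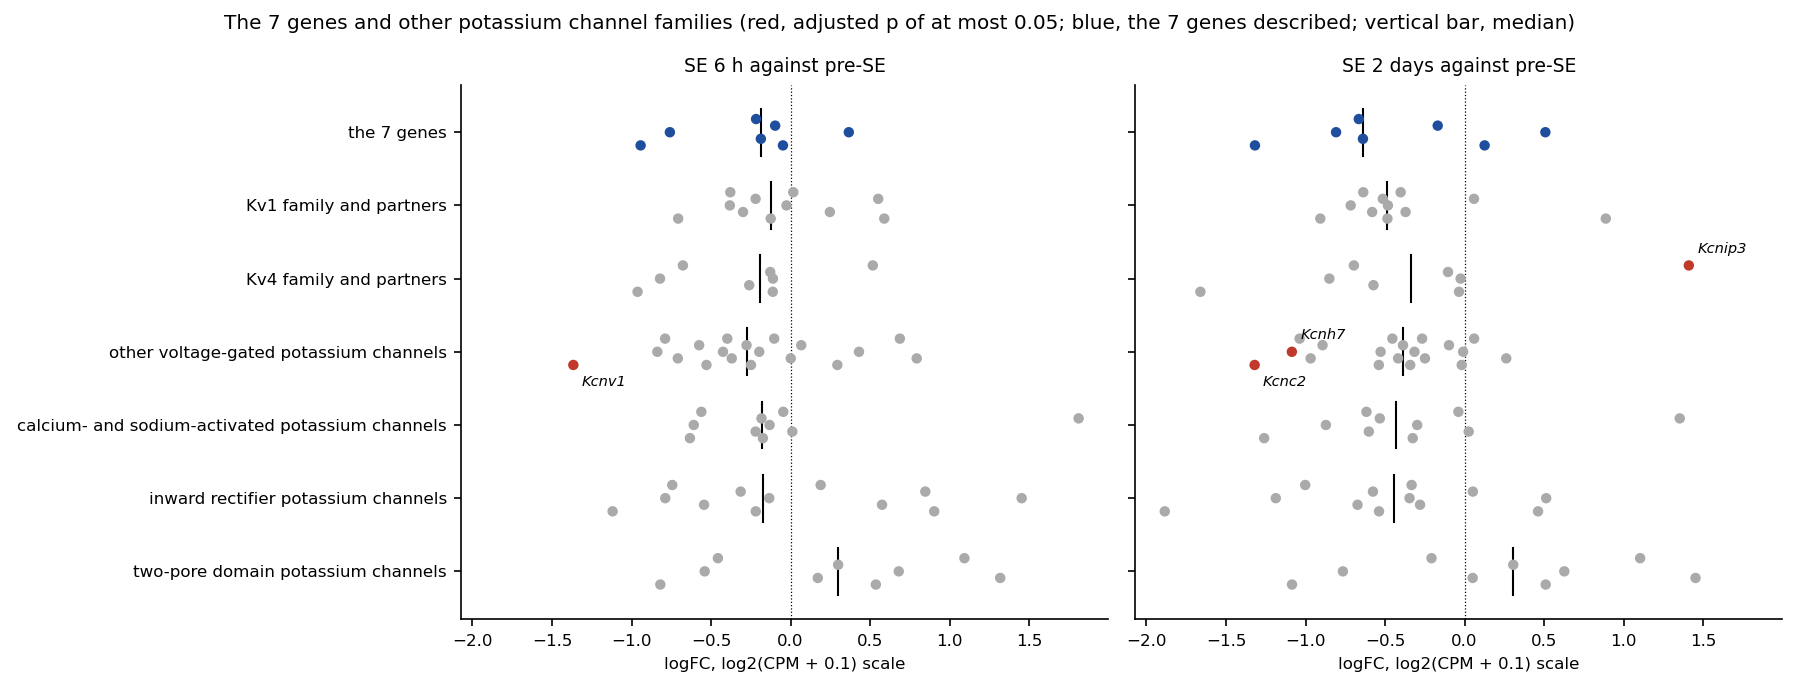
LogFC on the log2(CPM + 0.1) scale (x axis) of the 7 genes described (top row) and of other potassium channel genes and partners, by family (y axis, without the HCN and Kv7 families), in SE 6 h and SE 2 days against pre-SE mice. Red points are called (*Kcnv1* at 6 h, and *Kcnc2*, *Kcnh7* and *Kcnip3* at 2 days), vertical bars are medians, and at 2 days the medians of all rows except the two-pore domain channels lie below 0.

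Among the partners of HCN channels, *Pex5l*, which encodes the TRIP8b protein that traffics HCN channels, was at 342.98 and 216.96 CPM in pre-SE mice and 184.1 and 134.69 CPM in SE 2 days mice (logFC −0.79, limma adjusted p = 0.26). *Kctd3*, a partner of HCN3, had a logFC of −0.49 at 6 h and −0.16 at 2 days. *Lrmp* and *Mrvi1*, whose products modulate HCN4, were below 1 CPM in all mice, with −0.28 and 0.99 for *Lrmp* and −0.04 and 0.13 for *Mrvi1*.

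For Kv1 channels, 11 of 13 listed family members and partners were tested and 0 were called at either time, with 7 estimates below 0 at 6 h and 9 at 2 days (medians −0.12 and −0.48). *Cntnap2*, which clusters Kv1 channels beside the node of Ranvier, was at 72.63 and 70.1 CPM in pre-SE mice and 41.42 and 34.87 CPM in SE 2 days mice (logFC −0.91, limma adjusted p = 0.056). The beta subunit genes *Kcnab1*, *Kcnab2* and *Kcnab3* had logFC values of −0.71, −0.3 and −0.38 at 6 h and of −0.58, −0.64 and −0.72 at 2 days. Of the pore subunits, *Kcna4* had 0.55 and 0.06, *Kcna3* 0.25 and −0.4, *Kcna6* −0.12 and −0.48, and *Kcna5*, near 1 CPM, 0.59 and 0.89. *Lgi1*, a secreted epilepsy gene product, had −0.03 and −0.37, its receptor *Adam22* −0.38 and −0.51, and the scaffold gene *Dlg4* 0.02 and −0.48.

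All 8 Kv4 family members and partners listed were tested, with 7 estimates below 0 at each time (medians −0.19 and −0.34), and *Kcnip3* was the 1 called. The other KChIP genes had estimates below 0 at 2 days, −1.66 for *Kcnip2* (limma adjusted p = 0.057), −0.85 for *Kcnip4* and −0.7 for *Kcnip1*, and at 6 h of −0.82, −0.68 and −0.11. *Kcnip2* was at 136.36 and 119.34 CPM in pre-SE mice and at 72.33 and 22.4 CPM in SE 2 days mice. Thus *Kcnip3* was higher while the estimates of the other three KChIP genes were below 0 at 2 days. The auxiliary subunit genes *Dpp6* and *Dpp10* had −0.1 and −0.57 at 2 days and −0.13 and −0.26 at 6 h. *Kcnd1* had −0.96 at 6 h (adjusted p = 0.21) and −0.03 at 2 days, and *Kcnd3* 0.52 and −0.02.

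For Kv7 channels, *Kcnq5*, which like *Kcnq3* encodes a pore subunit, was at 64.77 and 36.3 CPM in pre-SE mice and 32.48 and 27.42 CPM in SE 2 days mice (logFC −0.7, limma adjusted p = 0.41). *Ank3*, whose product ankyrin-G holds Kv7 channels at the axon initial segment, had a logFC of −0.36 at 2 days. At 6 h the logFC was −0.06 for *Kcnq5* and 0.34 for *Ank3*. Pre-SE replicate 1 was above replicate 2 for *Kcnq3*, *Kcnq5* and *Ank3* alike. This order was not particular to the Kv7 genes. It also held for *Hcn2*, *Hcn4*, *Kcna1* and *Kcnd2*, and was reversed for *Hcn3* and *Kcna2*.

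The summed level of neuronal markers was lower in all 4 mice sampled at 2 days than in the pre-SE mice. Of 7 listed, 6 were tested, and their summed level was 4440 to 5410 CPM in pre-SE mice, 3830 to 5260 CPM in SE 6 h mice, 2970 to 3480 CPM in SE 2 days mice and 2910 to 3170 CPM in SE + LEV 2 days mice. All 6 had a logFC below 0 in SE 2 days against pre-SE, with a median of −0.54, and 0 were called by limma (1 at an unadjusted p under 0.05). The summed level of 6 pyramidal cell markers was 653 to 748 CPM in pre-SE mice, 458 to 470 CPM in SE 6 h mice and 536 to 549 CPM in SE 2 days mice. That of 6 oligodendrocyte markers was 4970 to 5400 CPM in pre-SE mice and 1780 to 2720 CPM in SE 2 days mice. In SE + LEV 2 days mice it was 3270 to 4600 CPM. All 6 oligodendrocyte estimates were below 0 in SE 2 days against pre-SE, 5 at an unadjusted p under 0.05 and 0 called by limma. With LEV against SE at 2 days all 6 were above 0 (median 0.85), 2 at an unadjusted p under 0.05 and 0 called. Astrocyte markers (7 of 7) summed to 2680 to 3210 CPM before and 3800 to 5140 CPM at 2 days after SE but went in both directions. At 2 days *Gfap* and *Aqp4* were called higher, while 4 of the 7 had a lower estimate, all 4 at an unadjusted p under 0.05 and none called, and the median logFC was −0.73. The 6 microglia markers summed to 154 to 165 CPM before SE and to 71.5 to 86.7 CPM at 6 h, where all 6 estimates were below 0 (median −0.81) and *P2ry12* and *Tmem119* were called lower. They summed to 298 to 309 CPM at 2 days, where 5 estimates were above 0 (median 1.02) and *Aif1* was called higher. Among the listed markers with deposited values, none was at 0 in both mice of a group. Only 4 of 6 choroid plexus markers and 4 of 5 markers of thalamus and habenula had values. The 5 of 6 dentate granule cell markers tested summed to 399 to 477 CPM before SE and to 246 to 338 CPM at 2 days, where *Tdo2* was called lower, and *Pdzd2* was called higher at 6 h. Among the pyramidal cell markers *Fibcd1* was called lower at 2 days. Endothelial markers summed to 65.2 to 68.6 CPM before SE, to 127 to 198 CPM at 6 h, where *Esam* and *Cdh5* were called higher, and to 110 to 123 CPM at 2 days. Interneuron markers summed to 888 to 1080 CPM in pre-SE mice and 828 to 1280 CPM in SE 2 days mice, where 5 of 6 estimates were below 0 (median −0.25, 0 called). In SE + LEV 2 days mice they summed to 755 to 800 CPM, with all 6 estimates against pre-SE below 0 (median −0.44, 0 called). Meningeal markers summed to 69.8 to 179 CPM in pre-SE mice and 121 to 150 CPM in SE 2 days mice. Markers of thalamus and habenula summed to 57.9 to 60.7 CPM and 39.9 to 40.6 CPM in these groups. Their part in the lower levels of the channel genes was not tested.

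The genes whose profile over the 10 mice was most like that of each channel gene were found by the mean absolute difference of log2(CPM + 0.1) values, each centred on its own mean, among 14220 genes with a mean of at least 1 CPM. They were *Rusc1* (0.086), *Mta1* (0.087) and *Rufy3* (0.091) for *Hcn2*, and *Zfp334* (0.116), *Radil* (0.122) and *Dgcr8* (0.125) for *Hcn3*. For *Kcna1* they were *Man1b1* (0.088), *Chsy3* (0.097) and *Rundc1* (0.104), and for *Kcna2* the sodium channel gene *Scn2a1* (0.099), *Nsf* (0.105) and *Zscan18* (0.117). For *Kcnd2* they were *Klc2* (0.056), *Gpi1* (0.062) and *Hdac11* (0.074), and for *Kcnq3* *Crim1* (0.109), *Cdc42bpa* (0.123) and *Nr2f1* (0.137). *Hcn4* was below the minimum mean. None of the 7 genes was among the 3 closest of another.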

How the data were processed

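One CAGE library per mouse, from whole hippocampus, was used, and the sample labels gave 5 groups of 2 mice. Tags were aligned by the authors to mm9, first with BWA 0.7.17 and, where this failed, with HISAT2 2.0.5, then clustered; the authors deposited CPM values per gene and mouse, rounded to 2 decimals. How clusters were summed to genes, and whether strand was used, is not given in the sources used here. Each mouse has its own column, and the columns with values but no sample numbered 0. Library totals were recovered as the totals for which values were whole tags within rounding (10 of 10 simulated totals were found), and were used for depth and exact Poisson intervals at the 95% level, which cover counting error only.

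Differences were tested with limma 3.58.1 (R 4.3.3), using log2(CPM + 0.1), two-sided, with all 10 libraries in 1 fit of 5 group means and a mean-variance trend. The p-values were adjusted by Benjamini-Hochberg over the 15851 genes that reached 0.1 CPM in 2 or more libraries. The fit was tested on simulated data. Separate rearing or batches are not described. The p-values rest only on the spread between these mice within groups, pooled over the 5 groups and shared across genes by the fit. Descriptions and figures were made with Python 3.11.15, pandas 2.3.3, SciPy 1.17.1 and matplotlib 3.10.9.

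The 7 genes and the lists of channel, partner and marker genes were chosen with earlier results of these data known. Named were the 7 genes, the genes of the 4 family lists (some are not reported here), the other channel genes called in SE 6 h or SE 2 days against pre-SE, and for each gene the 3 with the closest profile. *Kcnk6*, *Kcnv1* and *Kcnip2* in SE 2 days against SE 6 h, and the channel genes called under an alternative alone, were named after their values were seen. Alternatives were pseudocounts of 0.01, 0.5 and 1, no filter, a minimum of 1 CPM in 2 or more libraries, rescaling by the median of ratios, a replicate block, no trend, only the groups compared and each mouse left out. A crossed block was added after the data were seen.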

Additional observations from a re-analysis of the deposited data

How the results depend on the processing

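None of the 7 genes was called under 861 combinations of the 7 genes, the 9 comparisons and the alternatives except *Kcnq3* in SE 2 days against SE 6 h, where a fit of only these groups gave 1 of 7 (adjusted p = 0.045). The direction held in all but 57, and the cause was not tested. Median-of-ratios rescaling turned SE 6 h against pre-SE for *Hcn4* (0.01) and *Kcnq3* (0.08), and SE + LEV 6 h against SE 6 h for *Kcna1* (−0.05) and *Kcnd2* (−0.01), and SE + LEV 2 days against pre-SE for *Hcn3* (−0.02, with 0.0 before rescaling). All others left out 1 mouse. Over all fits without 1 mouse, the estimates in SE 6 h against pre-SE ranged from −0.37 to 0.17 for *Hcn4* and from −0.47 to 0.38 for *Kcnq3*. In SE 2 days against pre-SE they ranged from −0.18 to 0.43 for *Hcn3*, −0.45 to 1.47 for *Hcn4* and −0.35 to 0.01 for *Kcna1*. In SE 2 days against SE 6 h they ranged from −0.57 to 0.48 for *Hcn2*, −0.36 to 1.57 for *Hcn4* and −0.24 to 0.8 for *Kcna2*. In SE + LEV 6 h against SE 6 h the ranges were −0.25 to 0.8 for *Hcn2*, −0.27 to 0.7 for *Hcn3*, −0.18 to 0.2 for *Kcna1*, −0.19 to 0.63 for *Kcna2*, −0.15 to 0.24 for *Kcnd2* and −0.31 to 0.25 for *Kcnq3*. In SE + LEV 2 days against SE 2 days they were −0.44 to 0.19 for *Hcn3*, −1.02 to 0.91 for *Hcn4*, −0.39 to 0.0 for *Kcna1*, −0.59 to 0.45 for *Kcna2* and −0.23 to 0.11 for *Kcnd2*, and in SE + LEV 6 h against pre-SE −0.46 to 0.51 for *Hcn3*, −0.37 to 0.02 for *Kcnd2* and −0.5 to 0.35 for *Kcnq3*. They were −0.31 to 0.32 for *Hcn3* in SE + LEV 2 days against pre-SE. In SE + LEV 2 days against SE + LEV 6 h they were −0.63 to 0.24 for *Hcn2*, −0.51 to 0.46 for *Hcn3*, −0.56 to 0.17 for *Hcn4* and −0.18 to 0.16 for *Kcna2*. For the difference between the LEV effects they were −0.67 to 0.38 for *Hcn2*, −0.82 to 0.15 for *Hcn3*, −1.76 to 0.16 for *Hcn4*, −0.8 to 0.23 for *Kcna2* and −0.31 to 0.09 for *Kcnd2*.

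Of the 78 other channel genes, the 1 called in SE 6 h against pre-SE became 0 with rescaling, without the trend and with only the groups compared, and 0 to 1 without 1 mouse. The 3 in SE 2 days against pre-SE became 0 to 3 without 1 mouse, and of these *Kcnc2* alone kept its call without SE 2 days replicate 1 and without the trend. The 2 in SE 2 days against SE 6 h became 1 without the trend (*Kcnk6*) and 0 to 1 without 1 mouse. The 0 in SE + LEV 2 days against SE + LEV 6 h became 1 (*Kcnk6*) with pseudocounts of 0.5 and 1 and without the trend, and 0 to 1 without 1 mouse (*Kcnj4*, without SE + LEV 2 days replicate 2). Over all genes, 2.96% called in SE 6 h against pre-SE became 0.701% to 1.23% without 1 mouse. The 4.25% in SE 2 days against SE 6 h fell with any 1 mouse left out. The 5.66% in SE 2 days against pre-SE also fell with any 1 mouse left out, least without SE 2 days replicate 1. With only the groups compared, these shares rose to 5.01% and 7.26%. With SE + LEV against SE, 0.0126% at 6 h ranged from 0.0% to 0.0632% and 0.0% at 2 days reached 0.0126% over all alternatives, as did the difference between the LEV effects. SE + LEV 6 h against pre-SE (0.322%) gave 0.17% and 0.0883% with pseudocounts of 0.5 and 1, 0.196% without the trend and 0.0% to 0.101% without 1 mouse. With only the groups compared, SE + LEV 2 days gave 0.402% against pre-SE (2.85%) and 0.78% against SE + LEV 6 h (2.14%). Both shares rose without SE + LEV 2 days replicate 2 and fell without any other mouse of the groups compared. A block with the numbers crossed in SE + LEV 2 days gave 3.78% against pre-SE.

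With replicate numbers as a block, 0 of 7 genes were called in every comparison, and the channel genes in SE 2 days against SE 6 h went from 2 to 1 (*Kcnip3*). The deviations of same-numbered mice, which are different animals, had correlations across genes from −0.44 to 0.34, so the mice were taken to share only a number. A block with the numbers crossed in SE + LEV 2 days, added after the data were seen, gave 0 of 7 against SE 2 days and 0 of 7 against pre-SE. The edgeR and DESeq2 tests planned for recovered tag counts were not run: rounding to 2 decimals kept the low values of 7 of 10 libraries from being whole within 0.1 tag. Without 1 mouse, the lone mouse of its group was assumed to vary like the other groups. Depth limits *Hcn4*, with 6 to 36 tags.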
